A study of Rattus norvegicus with 304 samples.

Results

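Lasp1, Tpm1, Eml4, Sdc1 and Col18a1 were examined as the cytoskeleton and matrix genes of a quantitative PCR panel run on rat liver. The genes were chosen by name, and all 5 were found on both instruments, among 49 targets on the OpenArray (preloaded nanolitre wells) and 39 on the 7900HT, which reads ordinary PCR plates, or 50 targets in all. Male rats of 10-12 weeks received by oral gavage either TCDD, the most potent dioxin, or its corn oil vehicle. Han/Wistar rats withstand TCDD and Long-Evans rats are sensitive to it. At 19 h, Han/Wistar rats had been given 0.001, 0.01, 0.1, 1, 10, 100, 1000 or 3000 µg/kg, and Long-Evans rats 0.001, 0.01, 0.1, 1, 10, 50, 100 or 1000 µg/kg. At 100 µg/kg, Han/Wistar livers were taken at 1.5, 3, 6, 10, 19, 96, 240 and 384 h and Long-Evans livers at 3, 6, 10, 19, 96 and 240 h. Corn oil livers were taken at 1.5, 19, 96, 240 and 384 h in Han/Wistar and at 19, 96 and 240 h in Long-Evans.

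The labels give 150 OpenArray and 154 7900HT samples, in 36 groups of 3 to 7 replicates on each instrument, which the labels call biological, and 150 titles occur on both instruments. Each group has 1 deposited value per gene: a log2 ratio to the 19 h corn oil group of that strain, which is 0 by construction in that group (the log base was inferred from the values). Values of single animals were not used, so how animals differed is unknown, every printed p measures the spread between group values, and depth in molecules is unknown. All 180 of 180 values of the 5 genes are listed for the OpenArray, and 178 of 180 for the 7900HT, where Eml4 is not listed at 0.1 and 1 µg/kg in Long-Evans. A whole-liver value cannot tell fewer cells of a type from less RNA per cell, and no marker of hepatocytes, stellate, endothelial, Kupffer or bile duct cells was among the targets. The OpenArray assays were Rn00583517_m1 for Lasp1, Rn01512423_m1 for Tpm1, Rn01469579_m1 for Eml4, Rn00564662_m1 for Sdc1 and Rn01428995_m1 for Col18a1.

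TCDD binds the aryl hydrocarbon receptor (AHR), which enters the nucleus, pairs with ARNT and binds short DNA elements built around the letters GCGTG. Cell shape and adhesion rest on actin filaments and microtubules inside the cell and on proteoglycans and collagens at and outside its surface. Lasp1 encodes an actin-binding protein of focal adhesions, and Tpm1 encodes a tropomyosin, a coiled coil that lies along the actin filament. Eml4 encodes a microtubule-binding protein. Sdc1 encodes syndecan-1, a heparan sulphate proteoglycan of the cell surface that on hepatocytes takes part in the clearance of lipoprotein remnants, and Col18a1 encodes the chain of collagen XVIII, a proteoglycan collagen of basement membranes.

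Promoter stretches of Sdc1, Col18a1 and Tpm1, whose OpenArray dose trends were below 0, are shown because the AHR element can be looked for in them. RefSeq windows of the GRCr8 build were listed for 4 of the 5 genes (Tpm1, Eml4, Sdc1 and Col18a1). The 250 bases before the start were searched for GCGTG on both strands, and for TNGCGTG, a longer form that contains it. Sdc1 (chr6:37281791-37282040, plus strand) and Col18a1 (chr20:11473395-11473644, plus strand) are printed over those 250 bases. Tpm1 (chr8:76543538-76543567, minus strand) is printed only for the 30 bases around its match, because its window overlaps another start of the same gene. The window of Eml4 lies inside the gene's span and is not printed. Capitals mark GCGTG, or CACGC where it lies on the opposite strand.
Sdc1: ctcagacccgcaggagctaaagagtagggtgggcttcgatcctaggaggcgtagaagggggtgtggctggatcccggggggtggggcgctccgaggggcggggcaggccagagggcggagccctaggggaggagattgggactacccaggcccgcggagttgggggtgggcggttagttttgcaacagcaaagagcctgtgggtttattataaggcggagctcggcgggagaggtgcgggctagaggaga
Col18a1: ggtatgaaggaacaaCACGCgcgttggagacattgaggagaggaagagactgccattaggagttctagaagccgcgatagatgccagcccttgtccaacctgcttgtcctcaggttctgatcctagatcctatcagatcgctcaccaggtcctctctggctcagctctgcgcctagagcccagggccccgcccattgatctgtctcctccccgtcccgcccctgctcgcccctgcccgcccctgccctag
Tpm1: ggcagcgaatggGCGTGaggcccccgcggg
Sdc1 has no GCGTG in this window, Tpm1 has 1, whose first base lies 140 bases before the start, and Col18a1 has 1 on the opposite strand, 235 bases before the start. None of the 4 windows holds TNGCGTG. Of all 33469 windows of 250 bases, 25.9% hold GCGTG and 4.09% hold TNGCGTG, so a match is common and says nothing of binding in these livers.

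On the OpenArray at 19 h, Eml4 rose with dose in both strains while Sdc1 and Lasp1 fell in both, and Tpm1 fell in Han/Wistar. The trend was tested by Spearman's rho between each gene's log2 fold change and log10 dose over 8 TCDD groups, with an exact two-sided permutation p adjusted by Benjamini-Hochberg over every target of the strain. In Han/Wistar 4 of the 5 genes passed (1 higher, 3 lower), where 59.2% of all 49 targets passed (38.8% higher and 20.4% lower). In Long-Evans 3 of the 5 passed (1 higher, 2 lower), where 79.6% of all targets passed (53.1% higher and 26.5% lower). Before adjustment 4 of the 5 genes had a p under 0.05 in each strain, as did 71.4% of all targets in Han/Wistar rats and 83.7% in Long-Evans. The share of the 5 genes that passed is thus not set apart from that of the panel. At 100 µg/kg, 4 of the 5 genes lay below 0 in each strain in the authors' deposited table, with a median of -0.36 in Han/Wistar rats and -0.32 in Long-Evans. The median of all 49 targets lay at 0.23 and 0.59 there, with 21 and 18 targets below 0.

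Eml4, the microtubule binder, was the only 1 of the 5 genes that rose with dose. For Han/Wistar the authors' deposited table gives it -0.39 at 0.001, -0.53 at 0.01, -0.09 at 0.1, 0.46 at 1, 0.81 at 10, 0.87 at 100, 1.30 at 1000 and 1.26 at 3000 µg/kg. The authors' deposited table lists for Long-Evans 0.04 at 0.001, -0.18 at 0.01, 0.31 at 0.1, 0.83 at 1, 1.24 at 10, 1.42 at 50, 1.43 at 100 and 1.37 at 1000 µg/kg. From 1 µg/kg upward every dose group lay above every corn oil group of the same strain, whose ranges were -0.75 to 0 and 0 to 0.54 in the authors' deposited table. Eml4 was the only 1 of the 5 genes above that range at all those doses, as were 36.7% of all targets in Han/Wistar rats and 53.1% in Long-Evans. By the authors' deposited table the value at 100 µg/kg is a 1.83-fold increase in Han/Wistar and a 2.70-fold increase in Long-Evans. In Han/Wistar rats rho was 0.95 (exact permutation p = 0.00114, adjusted 0.00799) and 0.90 in Long-Evans (exact permutation p = 0.00456, adjusted 0.0102). Pearson's r was 0.97 and 0.95 (exact permutation p = 0.000248 and 0.00067), and rho was 1.00 in both strains without the lowest and the highest dose. Eml4 passed whichever single dose was left out, with an exact adjusted permutation p between 0.0136 and 0.0472 in Han/Wistar and between 0.00972 and 0.0486 in Long-Evans.

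For scale, at 100 µg/kg and 19 h the authors' deposited table gives 9.99 (Han/Wistar) and 9.47 (Long-Evans rats) for Cyp1a1, the classical AHR target. Its 19 h values lay above the corn oil range from 0.1 µg/kg, 1 dose step below Eml4, and those of Tiparp, an AHR target that feeds back on the receptor, from 1 µg/kg as for Eml4. Nqo1, a quinone reductase, did so from 0.1 µg/kg in Han/Wistar and from 0.001 µg/kg in Long-Evans. The size of the Eml4 response was thus far below that of Cyp1a1 at doses where both lay above their corn oil ranges.

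Sdc1, the cell surface proteoglycan, had the lowest values of the 5 genes at the highest doses. In Han/Wistar the authors' deposited table gives it -0.23 at 0.001, -0.22 at 0.01, -0.23 at 0.1, -0.68 at 1, -1.38 at 10, -0.69 at 100, -1.34 at 1000 and -1.19 at 3000 µg/kg. In Long-Evans the authors' deposited table gives 0.15 at 0.001, -0.39 at 0.01, -0.30 at 0.1, -0.91 at 1, -1.32 at 10, -1.62 at 50, -1.14 at 100 and -1.67 at 1000 µg/kg. In Long-Evans every dose from 1 µg/kg lay below the corn oil range of -0.52 to 0, whereas in Han/Wistar the groups at 1 and 100 µg/kg lay inside a range of -0.72 to 0 in the authors' deposited table. In Han/Wistar rats rho was -0.81 (exact permutation p = 0.0218, adjusted 0.0381) and -0.90 in Long-Evans (exact permutation p = 0.00456, adjusted 0.0102). Pearson's r was -0.84 and -0.95 (exact permutation p = 0.0141 and 0.00057), and without the lowest and highest dose rho was -0.83 and -0.77. The Long-Evans trend passed whichever dose was left out (exact adjusted permutation p up to 0.0486). The Han/Wistar trend did not pass without the group at 0.001 (rho -0.75, exact adjusted permutation p = 0.105), 0.01 (-0.75, 0.105), 0.1 (-0.71, 0.127), 1 (-0.71, 0.120) or 100 µg/kg (-0.82, 0.0539).

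Lasp1, the actin-binding adhesion protein, fell in both strains by under 1 log2 unit. The authors' deposited table gives it in Han/Wistar -0.22 at 0.001, -0.42 at 0.01, -0.24 at 0.1, -0.52 at 1, -0.76 at 10, -0.51 at 100, -0.57 at 1000 and -0.68 at 3000 µg/kg. The authors' deposited table lists for Long-Evans 0.10 at 0.001, -0.12 at 0.01, 0.06 at 0.1, -0.30 at 1, -0.55 at 10, -0.57 at 50, -0.44 at 100 and -0.52 at 1000 µg/kg. The Long-Evans groups from 1 µg/kg lay below the corn oil range of -0.04 to 0.22 in the authors' deposited table, while in Han/Wistar the range reached down to -0.57 and only the groups at 10, 1000 and 3000 µg/kg lay below it. Spearman's rho was -0.79 in each strain (exact permutation p = 0.0279, adjusted 0.0472 in Han/Wistar and 0.0370 in Long-Evans). Pearson's r was -0.77 and -0.89 (exact permutation p = 0.0264 and 0.00427), and rho without the end doses was -0.66 and -0.77. In Han/Wistar the call held only when 10 or 100 µg/kg was the group left out, and rho otherwise lay at -0.68 without 0.001, -0.71 without 0.01 or 0.1, -0.75 without 1 and -0.79 without 1000 or 3000 µg/kg (exact adjusted permutation p from 0.0713 to 0.149). In Long-Evans the call was lost without 0.001 (rho -0.68, exact adjusted permutation p = 0.141), 0.01 (-0.71, 0.111), 0.1 (-0.71, 0.100) or 1 µg/kg (-0.68, 0.122).

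Tpm1, the tropomyosin, moved least. For Han/Wistar the authors' deposited table gives it -0.10 at 0.001, 0.05 at 0.01, -0.05 at 0.1, -0.26 at 1, -0.33 at 10, -0.36 at 100, -0.27 at 1000 and -0.39 at 3000 µg/kg. In Long-Evans the authors' deposited table gives -0.06 at 0.001, -0.17 at 0.01, 0.14 at 0.1, -0.15 at 1, -0.36 at 10, -0.51 at 50, -0.14 at 100 and -0.52 at 1000 µg/kg. All groups from 1 µg/kg lay below the corn oil range in both strains, in Han/Wistar by a margin of a few thousandths at 1 µg/kg (the range, from the authors' deposited table, was -0.25 to 0.16 there and 0 to 0.24 in Long-Evans). In Han/Wistar Tpm1 was the only 1 of the 5 genes below it at all those doses, as were 18.4% of all targets, and in Long-Evans Lasp1, Tpm1, Sdc1 and Col18a1 all were, as were 30.6% of all targets. In Han/Wistar rats rho was -0.86 (exact permutation p = 0.0107, adjusted 0.0219) and -0.62 in Long-Evans, which did not pass (exact permutation p = 0.115, adjusted 0.120). Pearson's r was -0.84 and -0.69 (exact permutation p = 0.0112 and 0.0598), and rho without the end doses was -0.83 and -0.20. The Han/Wistar call was lost without 0.01 (rho -0.86, exact adjusted permutation p = 0.0530), 0.1 (-0.86, 0.0556), 1 (-0.79, 0.0871) or 3000 µg/kg (-0.79, 0.0759). In Long-Evans the trend passed without 100 µg/kg (-0.82, exact adjusted permutation p = 0.0398).

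Col18a1, the basement membrane collagen, did not pass in either strain. In Han/Wistar the authors' deposited table gives it -0.24 at 0.001, -0.36 at 0.01, -0.23 at 0.1, -0.46 at 1, -0.84 at 10, -0.34 at 100, -1.14 at 1000 and -0.78 at 3000 µg/kg. The authors' deposited table lists for Long-Evans 0.34 at 0.001, -0.13 at 0.01, -0.41 at 0.1, -0.46 at 1, -0.61 at 10, -0.61 at 50, -0.32 at 100 and -0.66 at 1000 µg/kg. In Han/Wistar only the group at 1000 µg/kg lay below the corn oil range of -0.88 to 0, whereas all Long-Evans groups from 0.1 µg/kg lay below a range of -0.27 to 0 in the authors' deposited table. In Han/Wistar rats rho was -0.67 (exact permutation p = 0.0831, adjusted 0.107) and -0.74 in Long-Evans (exact permutation p = 0.0458, adjusted 0.0548). Pearson's r was -0.74 and -0.82 (exact permutation p = 0.0408 and 0.0063, adjusted 0.0572 and 0.00935), and rho without the end doses was -0.54 and -0.37. Without 100 µg/kg the Long-Evans rho was -0.96 (exact adjusted permutation p = 0.00907).

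**Figure D1:**
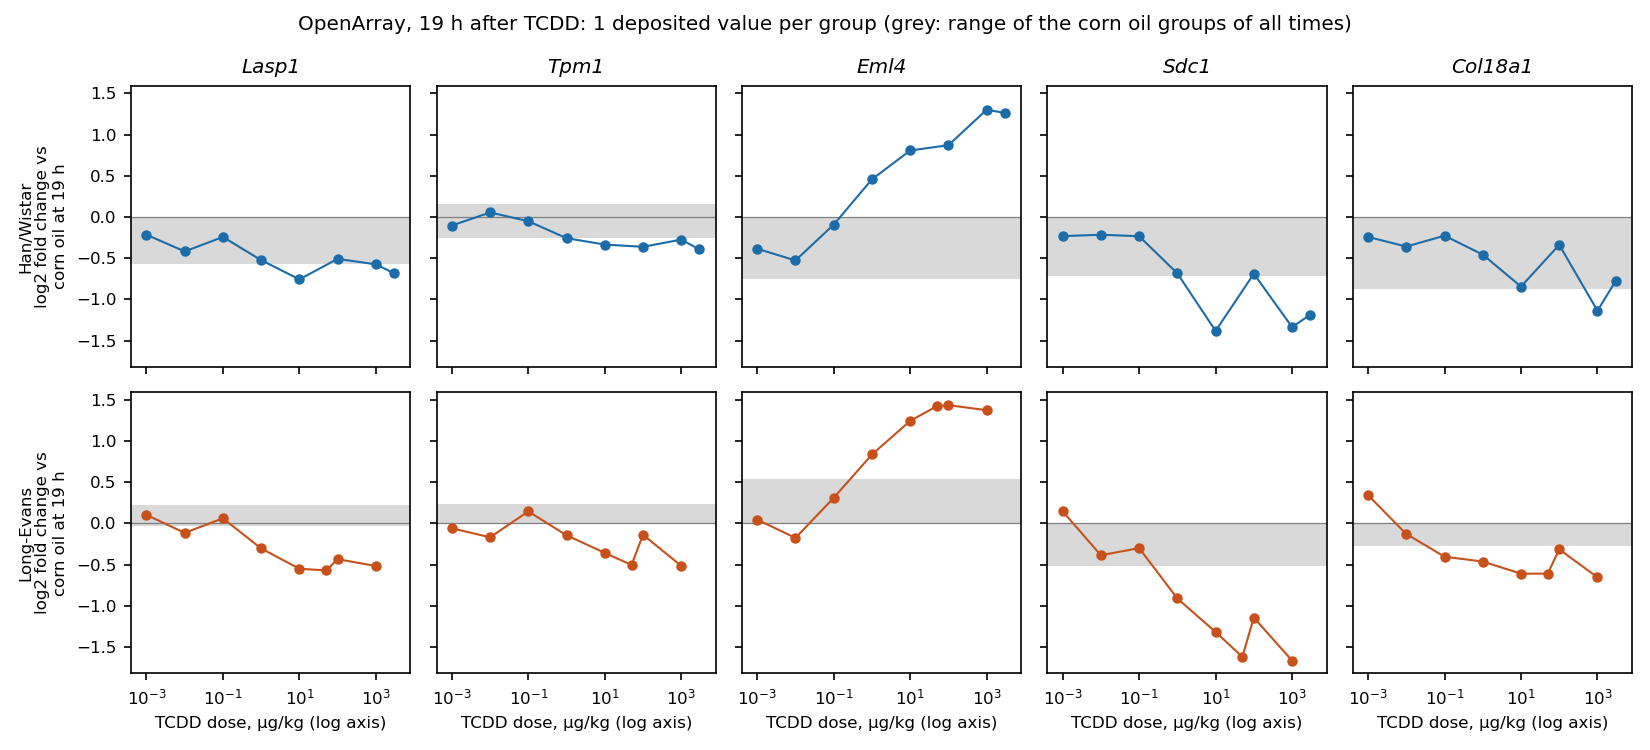
OpenArray log2 fold change against corn oil at 19 h (vertical axis) by TCDD dose in µg/kg (log axis), with 1 point per group, Han/Wistar above and Long-Evans below, and grey bands for the range of the corn oil groups of the strain. Eml4 climbs above its band from 1 µg/kg in both strains, and Sdc1 reaches -1.38 in Han/Wistar and -1.67 in Long-Evans.

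The scale of each group bears on these trends, because the median of all targets rose with dose. When every group was centred on its median or its mean over the panel, no sign of the 5 OpenArray dose trends turned. Relative to the median, all of Lasp1, Tpm1, Sdc1 and Col18a1 fell in both strains. Their rho lay between -0.79 and -0.95, with an exact adjusted permutation p of 0.0402 or less. Between the lowest and highest dose the subtracted median itself went from -0.13 to 0.26 (Han/Wistar) and from 0.04 to 0.54 (Long-Evans). A gene without any movement would thus fall by the centring alone. Taken by themselves, the centred trends cannot tell a fall of a gene from a rise of the panel. In Han/Wistar Eml4 kept a rho of 0.93 (exact adjusted permutation p = 0.0137), and in Long-Evans it had 0.76 and did not pass (0.0515), nor did it with the mean (0.71, exact adjusted permutation p = 0.0743). Over all targets the split of 19 higher and 10 lower calls in Han/Wistar became 14 and 17 after centring on the median and 8 and 20 on the mean. In Long-Evans 26 and 13 became 17 and 17, and 9 and 21.

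The difference between the strains was tested as Long-Evans minus Han/Wistar over the 7 doses at 19 h that both strains share. Lasp1 had the clearest course: the Long-Evans value was higher by 0.32 at 0.001, 0.30 at 0.01, 0.30 at 0.1, 0.22 at 1, 0.21 at 10, 0.07 at 100 and 0.06 at 1000 µg/kg. The gap narrowed with dose from a Han/Wistar value that was already below 0 at the lowest dose. The Han/Wistar corn oil groups at times other than 19 h lay below 0 as well, from -0.57 to -0.20. The gap had a rho of -0.96 against log10 dose (exact permutation p = 0.00278, adjusted 0.133) and did not pass over the 48 targets tested. With Pearson's r of -0.95 it passed (exact adjusted permutation p = 0.0381). No rho of any target passed the exact permutation test, 5 targets (10.4%) had an unadjusted p under 0.05, of which Lasp1 was the only 1 of the 5 genes, and Pearson's r called 1 of the 48 targets, which was Lasp1. Eml4 was 0.43 higher in Long-Evans at 0.001 µg/kg, 0.56 at 100 and 0.07 at 1000 µg/kg, and its rho over the 7 doses was 0. For Sdc1 rho was -0.71 (exact adjusted permutation p = 0.325), with Long-Evans 0.38 higher at 0.001 µg/kg and lower by 0.46 at 100 µg/kg (a difference of -0.46). Tpm1 and Col18a1 had rho of -0.07 and -0.04 (exact adjusted permutation p = 1.00 for both).

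At 100 µg/kg over time on the OpenArray, Eml4 rose early and stayed above corn oil, while the other 4 genes did not pass as deposited. The test compared the mean of the TCDD times with the mean of the corn oil times over every assignment of the groups, 8 against 5 in Han/Wistar rats and 6 against 3 in Long-Evans rats. On the OpenArray 1 of the 5 genes passed in Han/Wistar, where 55.1% of all targets passed (53.1% higher and 2.04% lower), and 1 in Long-Evans, where 32.7% passed (30.6% higher and 2.04% lower). Both were Eml4. Before adjustment 1 of the 5 genes, Eml4, had a p under 0.05 in Han/Wistar, where 59.2% of all targets did, and 2, Eml4 and Sdc1, in Long-Evans, where 61.2% did.

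For Eml4 in Han/Wistar the authors' deposited table gives 0.08 after 1.5 h, 1.74 after 3 h, 1.36 after 6 h, 1.23 after 10 h, 0.87 after 19 h, 1.80 after 96 h, 0.72 after 240 h and 0.63 after 384 h. The corn oil groups stood at -0.54, 0, -0.25, -0.31 and -0.75 at 1.5, 19, 96, 240 and 384 h in the authors' deposited table, so every TCDD time lay above every corn oil time. In Long-Evans the authors' deposited table gives 2.03 after 3 h, 1.40 after 6 h, 1.13 after 10 h, 1.43 after 19 h, 2.28 after 96 h and 1.80 after 240 h, against 0, 0.54 and 0.29 in corn oil at 19, 96 and 240 h. In Long-Evans too every TCDD time lay above every corn oil time, as was so for 51.0% of all targets there and for 12.2% in Han/Wistar. A further 16.3% of all targets in Long-Evans and 0% in Han/Wistar lay below every corn oil time at all TCDD times. In both strains 3 h and 96 h were the highest times. The means differed by 1.42 in Han/Wistar (1.05 against -0.37, exact adjusted permutation p = 0.0104) and by 1.40 in Long-Evans (1.68 against 0.28, exact adjusted permutation p = 0.0365). In Han/Wistar Eml4 passed without any single group (exact adjusted permutation p from 0.00412 to 0.0270). In Long-Evans, where 84 splits allow no p below 0.0119, it passed only without the TCDD group at 3 h or 240 h, and its difference lay at 1.46 without 6 h, 1.51 without 10 h, 1.45 without 19 h and 1.28 without 96 h, and at 1.27, 1.53 and 1.41 without corn oil at 19, 96 and 240 h (exact adjusted permutation p from 0.0515 to 0.109).

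Sdc1 lay low at most times, but so did its corn oil groups. For Han/Wistar the authors' deposited table gives it -0.69 after 1.5 h, -1.36 after 3 h, -0.83 after 6 h, -0.47 after 10 h, -0.69 after 19 h, -0.82 after 96 h, -1.13 after 240 h and -0.35 after 384 h, against -0.69, 0, -0.54, -0.72 and -0.58 in corn oil. The authors' deposited table lists for Long-Evans -0.96 after 3 h, -0.98 after 6 h, -0.98 after 10 h, -1.14 after 19 h, -1.14 after 96 h and -0.30 after 240 h, against 0, -0.52 and -0.33 in corn oil. The Long-Evans groups were separate from corn oil at every time but 240 h. The means differed by -0.29 in Han/Wistar (exact adjusted permutation p = 0.198) and by -0.63 in Long-Evans (exact permutation p = 0.0357, adjusted 0.0700). Without the Long-Evans group at 240 h the difference was -0.76 and passed (exact adjusted permutation p = 0.0486).

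The other 3 genes stayed near corn oil as deposited. In the authors' deposited table Lasp1 ranged from -0.90 (3 h) to -0.22 (6 h) in Han/Wistar and from -0.66 (10 h) to 0.39 (240 h) in Long-Evans, and the means differed by -0.20 and -0.25 (exact adjusted permutation p = 0.198 and 0.372). Tpm1 ranged from -0.36 (19 h) to 0.28 (384 h) and from -0.33 (10 h) to 0.32 (240 h) in the authors' deposited table, and the means differed by 0.0088 and -0.17 (exact adjusted permutation p = 0.935 and 0.345). In Long-Evans the late times of both actin genes lay above 0 and their early times below 0. Corn oil at 96 and 240 h stood at 0.24 and 0.06 for Tpm1 and at -0.04 and 0.22 for Lasp1. The median of all targets after TCDD in Long-Evans was 0.15 at 3 h, 1.10 at 96 h and 1.13 at 240 h. Col18a1 ranged from -0.66 (3 h) to 0.0034 (10 h) and from -0.41 (240 h) to 0.35 (6 h) in the authors' deposited table, and the means differed by 0.16 and 0.09 (exact adjusted permutation p = 0.415 and 0.620).

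**Figure D2:**
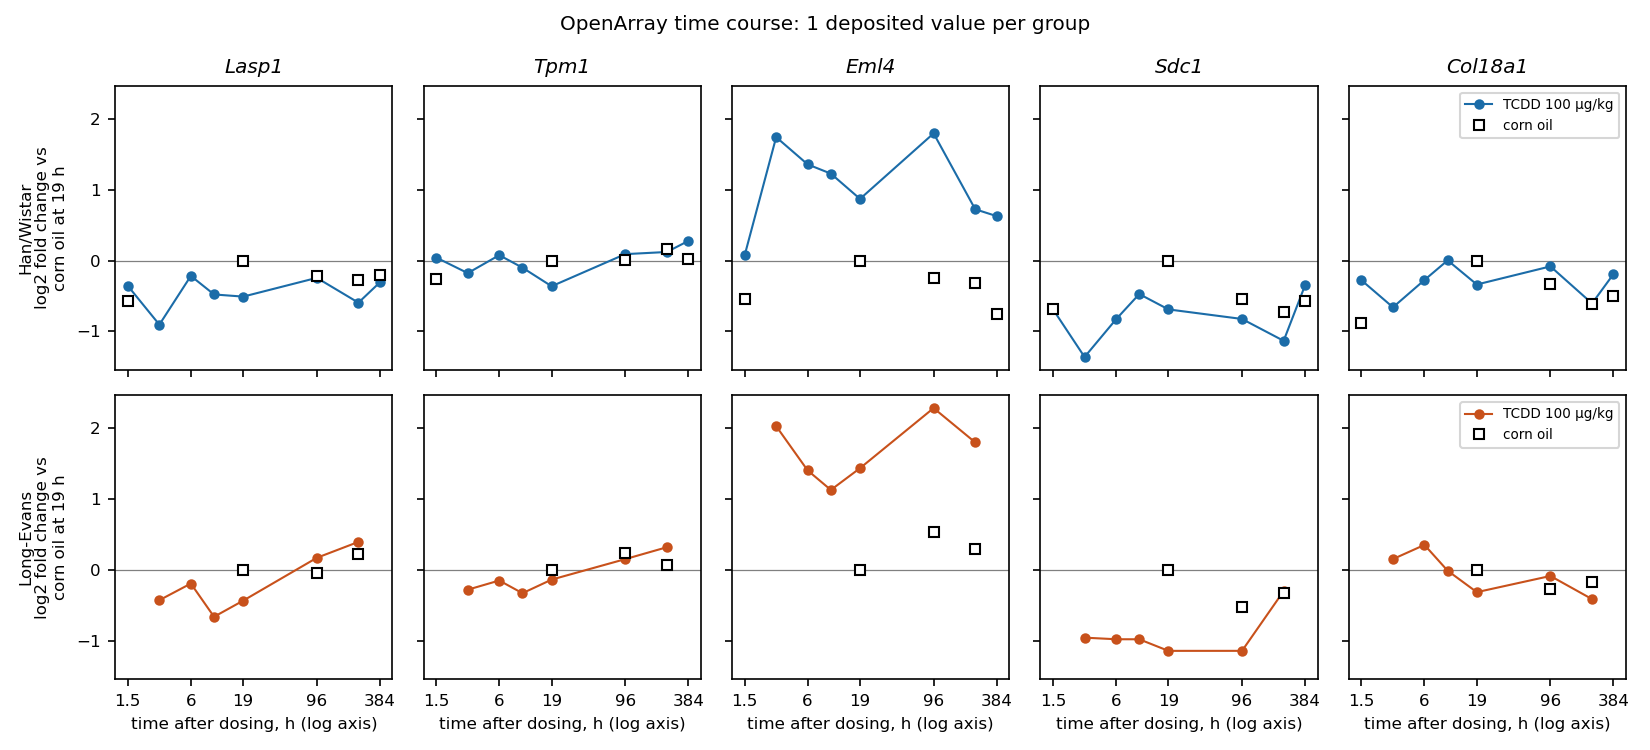
OpenArray log2 fold change against corn oil at 19 h (vertical axis) by hours after dosing (log axis), with filled points for 100 µg/kg TCDD and open squares for corn oil, 1 value per group, Han/Wistar above and Long-Evans below. The filled points of Eml4 lie above all its squares in both strains, from 0.08 at 1.5 h to 2.28 at 96 h, whereas those of the other genes cross the range of their squares.

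Relative to the OpenArray panel, whose median rose after TCDD, more of the 5 genes passed over time. A gene that does not move falls by this scaling alone, and Tpm1 in Han/Wistar differed by only 0.0088 as deposited. After centring on the median, Lasp1 (-0.64), Tpm1 (-0.43) and Sdc1 (-0.73) fell and Eml4 (0.98) rose in Han/Wistar, with an exact adjusted permutation p of 0.0190 or less, which turned the sign of Tpm1. Col18a1 turned from 0.16 to -0.28 and did not pass (exact adjusted permutation p = 0.0553). In Long-Evans Lasp1 (-0.86), Tpm1 (-0.78) and Sdc1 (-1.24) fell (exact adjusted permutation p = 0.0324 for each) and Eml4 did not pass (0.79, exact adjusted permutation p = 0.0805). The split over all targets moved from 26 higher and 1 lower to 16 and 12 in Han/Wistar, and from 15 and 1 to 11 and 7 in Long-Evans. With the mean in place of the median it was 8 and 27, and 9 and 19.

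Against corn oil of the same time, Eml4 was higher at each of the 8 pairs of groups on the OpenArray. The differences were 0.62 after 1.5 h, 0.87 after 19 h, 2.04 after 96 h, 1.04 after 240 h and 1.38 after 384 h in Han/Wistar, and 1.43, 1.74 and 1.51 at 19, 96 and 240 h in Long-Evans. The largest, at 96 h in Han/Wistar, is a 4.12-fold difference. The median difference of all targets was above 0 at all 8 pairs too, from 0.23 to 1.09, and at 240 h in Long-Evans Eml4 ranked 22 of 49 from the highest. The 7900HT did not give the same: in Han/Wistar Eml4 differed by -0.76, -1.18, 1.01, -0.07 and -0.29 over those times, below 0 at all but 96 h, and in Long-Evans by 1.44, 0.64 and 1.35. The values that follow are again from the OpenArray. Sdc1 differed by -0.0029, -0.69, -0.28, -0.41 and 0.22 in Han/Wistar and by -1.14, -0.62 and 0.03 in Long-Evans over the same times. Its largest difference was thus at 19 h in both strains, and it was above 0 at the last time in both. Lasp1 was lowest at 19 h (-0.51 in Han/Wistar rats and -0.44 in Long-Evans rats), and at the other times lay between -0.33 and 0.21. Tpm1 lay between -0.36 and 0.30 and Col18a1 between -0.34 and 0.60, each lowest at 19 h in Han/Wistar. On the OpenArray, Lasp1, Tpm1, Sdc1 and Col18a1 each had their lowest same-time value at 19 h in both strains. The median difference of all targets was lowest at 19 h too, with 0.23 for Han/Wistar and 0.59 for Long-Evans. Relative to that median, 19 h stayed the lowest time only for Col18a1 in Han/Wistar and for Lasp1 and Sdc1 in Long-Evans. On the 7900HT a lowest value at 19 h was not common to all these genes. There Lasp1 in Long-Evans differed by 0.44 at 19 h and by -1.67 at 96 h. No test was run on these single differences.

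**Figure D3:**
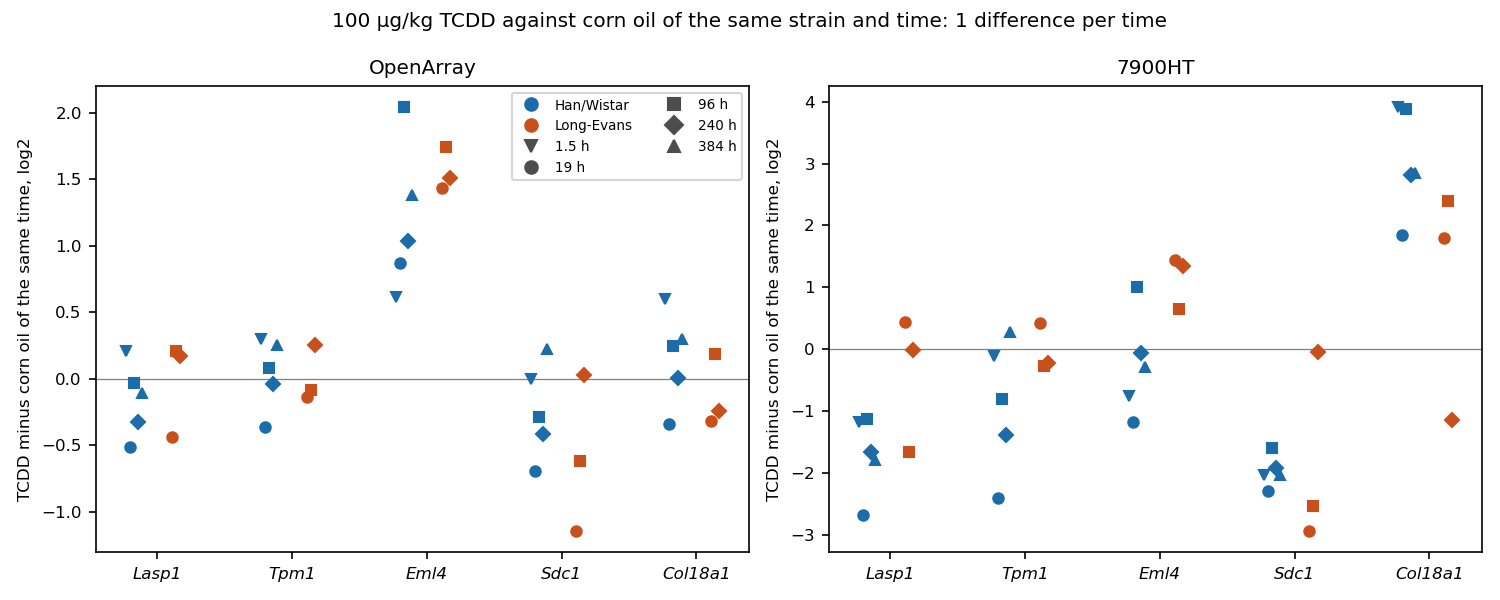
Log2 difference between 100 µg/kg TCDD and corn oil of the same strain and time (vertical axis) for each gene, OpenArray left and 7900HT right on separate scales, coloured by strain with 1 symbol per time. Eml4 lies above 0 at each OpenArray pair, from 0.62 to 2.04, and Sdc1 below 0 at each 7900HT pair, from -2.95 to -0.05.

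The strains' time courses were compared over the 6 TCDD and 3 corn oil times they share. None of the 5 genes passed the exact permutation test on the OpenArray, where 0 of 49 targets passed and 6 (12.2%) had an unadjusted p under 0.05, none of them among the 5. The shifts of Long-Evans minus Han/Wistar were 0.08 for Lasp1, -0.06 for Tpm1, -0.07 for Eml4, -0.17 for Sdc1 and 0.10 for Col18a1, with an exact adjusted permutation p between 0.829 and 0.856. A p above the threshold does not show that the strains responded alike.

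The 7900HT gave larger values with a wider spread, and no dose trend of the 5 genes passed there. Under the exact permutation test 2.56% of all 39 targets passed for Han/Wistar and 0% for Long-Evans, while 25.6% and 12.8% had an unadjusted p under 0.05, none of them among the 5 genes, and Pearson's r called 0 of the 5 in each strain. Sdc1 was below corn oil at every dose. The authors' deposited table gives it in Han/Wistar -1.97 at 0.001, -2.63 at 0.01, -3.94 at 0.1, -3.00 at 1, -3.14 at 10, -2.29 at 100, -4.06 at 1000 and -4.30 at 3000 µg/kg. In Long-Evans the authors' deposited table gives -2.27 at 0.001, -3.18 at 0.01, -3.64 at 0.1, -4.13 at 1, -5.98 at 10, -5.84 at 50, -2.95 at 100 and -5.69 at 1000 µg/kg. By the authors' deposited table every TCDD dose, from 0.001 µg/kg upward, lay below the corn oil range of -1.46 to 0.53 in Han/Wistar and of -1.63 to 0.06 in Long-Evans. Of all targets 7.69% and 10.3% lay below that range at every dose from 1 µg/kg, and Sdc1 was the only 1 of the 5 genes among them. The share from 0.001 µg/kg was not taken. The panel lay low at the lowest doses too. At 0.001, 0.01 and 0.1 µg/kg the median of all targets was -1.12, -1.03 and -1.58 in Han/Wistar. In Long-Evans it was -0.12, -1.16 and -1.58. Whether Sdc1 itself responded at those doses was not tested. Its rho was -0.69 in Han/Wistar and -0.50 in Long-Evans (exact adjusted permutation p = 0.208 and 0.677).

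Eml4 on the 7900HT lay above 0 at every listed 19 h dose but 1. In Han/Wistar the authors' deposited table gives it 0.29, 2.23, 1.29, 3.54, 3.89, -1.18, 3.51 and 3.41 from 0.001 to 3000 µg/kg, the negative value being that at 100 µg/kg. The authors' deposited table lists for Long-Evans 3.99 at 0.001, 3.35 at 0.01, 2.63 at 10, 3.02 at 50, 1.44 at 100 and 3.15 at 1000 µg/kg. The values at the lowest Long-Evans doses are as high as those at the highest, unlike on the OpenArray, and rho was 0.31 in Han/Wistar and -0.60 over 6 Long-Evans doses (exact adjusted permutation p = 0.621 and 0.677). The listed Long-Evans doses from 1 µg/kg lay above corn oil, as did 12.8% of all targets.

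The 100 µg/kg group stood apart from the neighbouring doses on the 7900HT for all 5 genes in both strains. In Long-Evans the authors' deposited table gives Lasp1 -2.83 at 50, 0.44 at 100 and -2.77 at 1000 µg/kg, Tpm1 -3.06, 0.42 and -2.90, and Col18a1 -4.93, 1.80 and -4.93. In Han/Wistar the authors' deposited table gives Eml4 3.89 at 10, -1.18 at 100 and 3.51 at 1000 µg/kg, and Col18a1 -0.78, 1.84 and -1.88. The whole panel did so too: the value at 100 µg/kg lay outside its neighbours for 39 of 39 targets in Long-Evans and 33 of 39 in Han/Wistar, with a median absolute gap of 2.82 and 1.66. On the OpenArray the value at 100 µg/kg also lay outside its neighbours for 45 of 49 and 35 of 49 targets, and for 5 of 5 and 4 of 5 of the genes, with a smaller median gap of 0.27 and 0.28. The widest OpenArray gaps of the 5 genes were 0.67 for Sdc1 and 0.65 for Col18a1 in Han/Wistar. The 100 µg/kg group at 19 h is also part of the time course, and its part in the 7900HT results was not tested beyond leaving it out, after which no dose trend of the 5 genes passed.

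**Figure D4:**
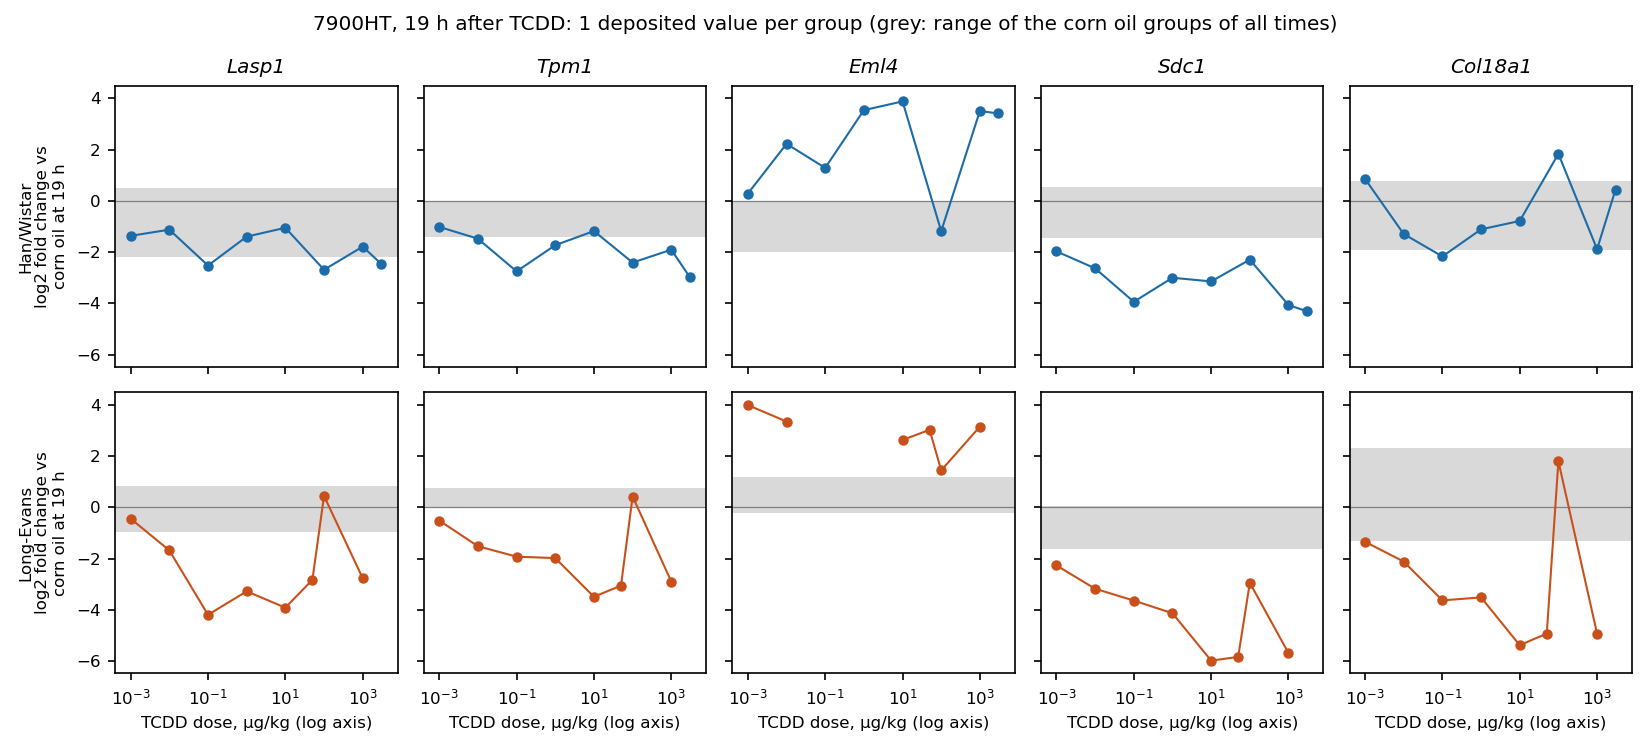
7900HT log2 fold change against corn oil at 19 h (vertical axis) by TCDD dose in µg/kg (log axis), with 1 point per group, Han/Wistar above and Long-Evans below, and grey bands for the range of the corn oil groups. The point at 100 µg/kg departs from its neighbours in every panel, and Sdc1 lies below its band at each dose, down to -5.98.

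Over time at 100 µg/kg the 7900HT showed falls of Lasp1 and Sdc1 in Han/Wistar. There 2 of the 5 genes passed, both lower, where 35.9% of all targets passed (15.4% higher and 20.5% lower). Before adjustment 4 of the 5 had a p under 0.05, all but Eml4, as did 53.8% of all targets. In the authors' deposited table Sdc1 stood at -3.50, -3.44, -2.88, -0.98, -2.29, -1.07, -1.83 and -1.61 from 1.5 to 384 h in Han/Wistar, against -1.46, 0, 0.53, 0.09 and 0.42 in corn oil. Its means differed by -2.12 (exact adjusted permutation p = 0.0260), and the TCDD groups at 10 and 96 h overlapped with corn oil at 1.5 h. In the authors' deposited table Lasp1 stood at -3.37, -3.44, -2.51, -1.21, -2.69, -0.84, -1.67 and -1.28 over the same times, against -2.18, 0, 0.29, -0.0046 and 0.51 in corn oil. The low corn oil group was again that at 1.5 h, and the means differed by -1.85 (exact adjusted permutation p = 0.0466). The Lasp1 call was lost without TCDD at 1.5, 3, 6, 19 or 240 h or corn oil at 19, 96, 240 or 384 h (difference from -1.91 to -1.65, exact adjusted permutation p from 0.0585 to 0.0998). The Sdc1 call was lost without corn oil at 19 h (-2.10, exact adjusted permutation p = 0.0525) or 240 h (-2.07, 0.0563).

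Tpm1 and Col18a1 moved in opposite directions in that series without passing. Tpm1 differed by -1.56 (exact adjusted permutation p = 0.0654) and passed without TCDD at 384 h (-1.85, exact adjusted permutation p = 0.0269). Col18a1 differed by 1.98 (exact adjusted permutation p = 0.0808), with 1.99, 0.07, -0.50, 0.54, 1.84, 4.26, 2.88 and 3.62 from 1.5 to 384 h in the authors' deposited table, and passed when only times with both groups were used (3.06, exact adjusted permutation p = 0.0442). Eml4 differed by 0.07 (exact adjusted permutation p = 0.908). Among Long-Evans groups 0 targets passed in the exact permutation test, 16 of 39 (41.0%) had an unadjusted p under 0.05, and 84 splits allow no p below 0.0119. Among these were Sdc1, lower by 2.08 (a shift of -2.08, exact adjusted permutation p = 0.0663), and Eml4, higher by 0.90 (exact adjusted permutation p = 0.116). Sdc1 lay below corn oil at all 6 Long-Evans times, as did 10.3% of all targets. No strain difference over dose (0 of 37 targets, 0 at an unadjusted p under 0.05) or over time (0 of 39, with 20.5% at an unadjusted p under 0.05) passed the exact permutation test on the 7900HT, nor did Pearson's r call any of the 5 genes over dose. Among those with a low unadjusted p, Tpm1 shifted by 2.11 (exact permutation p = 0.0119, adjusted 0.155).

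Set side by side, the instruments gave the same sign for Sdc1 and not for Col18a1. Over the TCDD groups at 1 µg/kg or more, Sdc1 had the same sign on both in 12 of 12 Han/Wistar and 10 of 10 Long-Evans groups, with medians of -0.83 and -2.94, and of -1.06 and -3.05, on the OpenArray and the 7900HT. Eml4 had it in 6 of 12 and 9 of 9, Lasp1 in 12 of 12 and 5 of 10, Tpm1 in 8 of 12 and 7 of 10, and Col18a1 in 5 of 12 and 6 of 10. These signs are against corn oil at 19 h only. On the OpenArray the other Sdc1 corn oil groups lay below 0 as well, at -0.72 to -0.54 in Han/Wistar and -0.52 to -0.33 in Long-Evans. Sign agreement was not counted over all targets. Col18a1 against corn oil of the same time was higher by 1.84 to 3.91 at all 5 Han/Wistar times on the 7900HT, where the OpenArray gave -0.34 to 0.60. In Long-Evans Col18a1 differed by 1.80, 2.39 and -1.15 at 19, 96 and 240 h on the 7900HT, the last of which was below corn oil, and by -0.32, 0.18 and -0.24 on the OpenArray. For Sdc1 the same-time difference on the 7900HT was -1.60 to -2.29 in Han/Wistar and -2.95, -2.53 and -0.05 at 19, 96 and 240 h in Long-Evans. At 240 h in Long-Evans the Sdc1 difference as deposited was thus near 0 on both instruments. Relative to the median difference of all targets it was -1.06 on the OpenArray and -0.64 on the 7900HT at that time, and -1.74 and -3.66 at 19 h. All 5 genes have 2 rows per gene in the raw 7900HT table, as do 25 of its targets, while 14 have 4.

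Which targets ran most alike was described by Spearman's rho over the 34 groups other than corn oil at 19 h, which share strains, a reference group per strain and any shift of a whole group. On the OpenArray Eml4 ran closest to Uvrag (0.94), Ube4b (0.93) and Srxn1 (0.91), and most opposite to Inmt (-0.66). Sdc1 ran closest to Ugt1a1 (0.74), Lasp1 (0.66) and Slco1a1 (0.65), and most opposite to Zfp422 (-0.67). Uvrag acts in autophagy, Ube4b is a ubiquitin ligase, Srxn1 reduces oxidised peroxiredoxins, Inmt is an indolamine methyltransferase, Ugt1a1 conjugates bilirubin and Slco1a1 is an organic anion transporter. Lasp1 ran closest to Ern1 (0.74), Ugt1a1 (0.67) and Tpm1 (0.67), Tpm1 to Lasp1 (0.67), Ugt1a1 (0.60) and Nrbp2 (0.58), and Col18a1 to Mug1 (0.66), Lasp1 (0.56) and Ern1 (0.48). Their most opposite targets were Psmb4 for Lasp1 (-0.52) and Tpm1 (-0.69), and Pomp for Col18a1 (-0.29). After centring on the median, 3 of 3 neighbours of Sdc1 and 2 of 3 of Eml4 stayed among the closest 3, but 1 of 3 of Lasp1 and 0 of 3 of Tpm1 and of Col18a1 did.

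Among the 5 genes themselves, Lasp1 and Tpm1, both of the actin filament, had an OpenArray rho of 0.67 and Lasp1 and Sdc1 one of 0.66. Eml4 against Sdc1 gave -0.62. After centring on the median, the OpenArray pairs among Lasp1, Tpm1, Sdc1 and Col18a1 had rho from 0.65 (Tpm1 and Col18a1) to 0.90 (Lasp1 and Sdc1), and their pairs with Eml4 had -0.57 to -0.81. On the 7900HT the same centred pairs ranged from -0.03 (Lasp1 and Col18a1) to 0.56 (Lasp1 and Tpm1), and those with Eml4 from -0.60 (Col18a1) to 0.12 (Lasp1). Centring takes the same value from every gene of a group, which can by itself make genes of small movement run alike. As deposited on the OpenArray, Tpm1 with Col18a1 had 0.31 and Lasp1 with Eml4 -0.19. How much of the centred rho comes from the centring was not tested. On the 7900HT the closest targets were Pde2a (0.88), Slco1a1 (0.84) and Uvrag (0.83) for Lasp1, Ghr (0.86), Gfer (0.84) and Lasp1 (0.83) for Tpm1, and Lasp1 (0.73), Ghr (0.73) and Pde2a (0.71) for Sdc1. They were Neu1 (0.64), Derl1 (0.64) and Ivns1abp (0.40) for Eml4 over 32 groups, and Srxn1 (0.92), Ghr (0.84) and Mawbp (0.83) for Col18a1. The most opposite were Cyp1a1 for Lasp1 (-0.58), Tpm1 (-0.68) and Sdc1 (-0.57), Col18a1 for Eml4 and Eml4 for Col18a1 (-0.50). The pairs of Lasp1 with Tpm1 and of Lasp1 with Sdc1 were the only ones among the closest 3 on both instruments.

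Of 90 gene symbols listed for the actin cytoskeleton, microtubules and intermediate filaments, and the cell surface and matrix, 6 were on the panel. They were the 5 above and Ivns1abp, which encodes an actin-associated kelch protein and was listed with the microtubule and intermediate filament genes. Ivns1abp fell with dose in Long-Evans on the OpenArray (rho -0.93, exact adjusted permutation p = 0.00684) and had a rho of -0.64 in Han/Wistar (exact adjusted permutation p = 0.121). At 100 µg/kg and 19 h the authors' deposited table gives it -0.93 (Han/Wistar) and -0.90 (Long-Evans rats), lower than Lasp1, Tpm1 and Col18a1 in both strains. Over time it differed by -0.27 and -0.60 on the OpenArray (exact adjusted permutation p = 0.415 and 0.0556), and by -2.55 in Han/Wistar on the 7900HT, where it passed (exact adjusted permutation p = 0.0152). Of the 6 listed genes, 1 rose with dose in each strain on the OpenArray, 3 fell in each, and 2 did not pass in each. Over the whole panel 38.8% rose and 20.4% fell in Han/Wistar, against 53.1% and 26.5% in Long-Evans.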

How the data were processed

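Per the labels' protocols, cDNA from liver RNA was amplified on both instruments. The deposited tables hold 1 value per gene and group, read as the log2 fold change that the authors computed against the 19 h corn oil group of that strain; the log base is inferred. How the authors averaged, and against which reference genes, is not given in the sources used here. R 2.12.2 was used, per the submitters' processing notes. The 304 columns of raw cycle values (150 and 154) carry animal codes that match no sample label and were not used, so groups, assigned from the labels, were the units.

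Dose trends were tested by rho over all 40320 orders of 8 groups (5040 of 7), with at least 6 groups required, and time courses over all 1287 (Han/Wistar) or 84 (Long-Evans) splits. Tests were two-sided and adjusted over every target of a platform and strain at 0.05. The alternatives were centring on the group mean or median, centring 7900HT genes with 4 and with 2 rows apart, Pearson's r, corn oil entered as a lowest dose, times with both groups, and leaving out single groups. Where 0.01 and 1000 µg/kg tied in distance from the median dose, the end doses 0.001 and 1000 were left out.

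The genes, lists and tests were chosen with earlier results of these data known. The text names the 5 genes, for each the 3 most similar targets and the least similar 1 (at least 20 shared groups), Cyp1a1, Tiparp and Nqo1 for scale, and other measured genes of the lists. Promoters came from the RefSeq table for GRCr8. The procedures were tested on simulated data. Scripts ran in Python 3.11.15 with scipy 1.17.1, numpy 2.4.6, matplotlib 3.10.9 and pandas 2.3.3.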

Additional observations from a re-analysis of the deposited data

How the results depend on the processing

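Among the 5 genes, the number that passed was within 1.5 times of the reported one under every alternative not named here. Centring on the mean or the median gave 4 and 4 over time in Han/Wistar on the OpenArray (1 as deposited), 3 and 3 in Long-Evans (1), 1 and 1 by dose in Han/Wistar (0) and 1 and 1 over time in Long-Evans (0) on the 7900HT, and the median 4 over time in Han/Wistar there (2). In Han/Wistar on the OpenArray it reversed the time course of Tpm1 (-1.02 with the mean, -0.43 with the median) and of Col18a1 (-0.87 with the mean, and -0.28 with the median, which did not pass). Times with both groups gave 0 on the OpenArray in Long-Evans, where 3 groups against 3 allow no p below 0.1, and 1 on the 7900HT in Han/Wistar. Centring genes with 4 and 2 rows apart gave 1 by dose on the 7900HT in Long-Evans, and Pearson's r gave 1 strain difference over dose on the OpenArray. Leaving out single groups gave 1 to 4 (Han/Wistar) and 2 to 5 (Long-Evans) by dose and 1 to 1 and 0 to 2 over time on the OpenArray, and 0 to 0 and 0 to 0 by dose and 0 to 3 and 0 to 0 over time on the 7900HT. No paired analysis was possible because the replicate numbers shared by the labels cannot be joined to values per animal. Neither the spread between animals nor the number of molecules behind a value is known, and the causes of these changes were not tested.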
